A study of Mus musculus with 34 samples.

Results

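The integrated stress response genes described here were 10 genes taken by symbol from the deposited count table: the transcription factor gene Atf4 and Ddit3, Trib3, Ppp1r15a, Sesn2, Chac1, Asns, Phgdh, Psat1 and Slc7a3. They were 10 of the 55385 genes listed and all 10 were among the 17632 genes with enough reads to be tested. Their levels were followed in the cerebral cortex of 34 mice aged 6 months, 16 females and 18 males, in poly-A RNA libraries of 1 mouse each. The mice were 5xFAD-Dp16, 5xFAD, Dp16 or wild-type (WT) C57BL/6J, and each genotype was given tofacitinib or a sham treatment. In Dp16 mice a stretch of mouse chromosome 16 is duplicated, and its genes correspond to many of those on human chromosome 21. In 5xFAD mice, transgenes of human origin bearing mutations of familial Alzheimer's disease are driven in neurons by Thy1 sequences and lead to amyloid deposits. 5xFAD-Dp16 mice have both lesions. Tofacitinib, a Janus kinase inhibitor, was given by mouth at 15 mg/kg every day for 1 month, and sham mice received the vehicle, 0.5% methylcellulose, in the same way. Tofacitinib was given to 4 5xFAD-Dp16, 5 5xFAD, 5 Dp16 and 5 WT mice, and the sham treatment to 3, 4, 3 and 5 mice of these genotypes in the same order. No member lies in the duplicated segment.

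The integrated stress response lowers general protein synthesis when a stress sensor kinase phosphorylates the initiation factor eIF2. Translation of the Atf4 message then goes up, and the ATF4 protein turns on genes for amino acid supply, redox balance and, when stress lasts, cell death. Since ATF4 is controlled mainly through translation, the level of Atf4 mRNA is not a readout of the ATF4 protein, and its target genes are the usual transcript readout. The pathway has been studied in models of trisomy 21 and of amyloid deposition, which is the question the comparison of genotypes addresses here.

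ATF4 binds DNA as a dimer with C/EBP proteins, and the shared core of these binding elements is TGATGNAA. RefSeq promoters of build GRCm38.p6, each 250 bases before to 50 after a gene's start, were found for 9 members, with 2 promoters for Psat1. The motif was searched on both strands and stood in 3 of these 10 promoters, those of Chac1, Trib3 and Asns. In the table, 3.97% of 32851 promoters held it. The members were chosen as Atf4 and its targets, so setting them beside all promoters is not a test. These 3 sequences are shown because they hold the letters of the element at the members' own starts. The capitals mark the motif, read on the gene's strand, so that TTGCATCA and TTACATCA are matches on the opposite strand.
Chac1, chr2:119351003-119351102, plus strand: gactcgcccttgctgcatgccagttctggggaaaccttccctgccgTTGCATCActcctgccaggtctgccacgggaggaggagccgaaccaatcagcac
Trib3, chr2:152344031-152344092, minus strand: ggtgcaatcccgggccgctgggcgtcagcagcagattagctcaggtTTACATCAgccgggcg
Asns, chr6:7693180-7693278, minus strand: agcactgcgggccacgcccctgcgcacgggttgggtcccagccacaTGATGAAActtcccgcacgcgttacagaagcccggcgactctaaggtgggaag
The first base of the motif lay at position -193 in Chac1, +15 in Trib3 and -23 in Asns, counted from +1 at the start. A match is a description of the letters, and the promoters without one hold no such letters in this window. The 10th gene, Slc7a3, has no entry in the promoter table, so its promoter was not searched.

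Levels are given as CPM, reads of a gene scaled to the library's total after TMM normalization. The libraries held between 16029841 and 21388650 counted reads. Markers of every brain cell type looked at were present: over the 5 excitatory and 6 inhibitory neuron, 8 astrocyte, 7 oligodendrocyte, 7 microglia and 5 endothelial markers, the lowest count of any marker in any library was 92. The summed level of 6 striatal markers ranged from 236 to 1493 CPM between libraries, so the cortex samples held unequal amounts of these transcripts. One library, 5xFAD tofacitinib 2, stood apart, with the lowest sum of excitatory neuron markers, 2484 CPM against a median of 6151, and the highest of oligodendrocyte markers, 14171 against 7682. In bulk tissue, fewer cells of a type and less RNA per cell cannot be told apart.

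The 10 genes covered a wide range of levels. On the deposited per-length scale, RPKM, which is reads divided by gene length and by the library's total without TMM scaling, the median over 34 libraries was 98.2 for Atf4 (chromosome 15, 80255184 to 80257541, plus strand), the transcription factor of the response. Next came enzymes of amino acid synthesis: Psat1 (chromosome 19, 15904678 to 15947337, minus), the phosphoserine aminotransferase, had 57.7 RPKM, Asns (chromosome 6, 7675169 to 7693254, minus), asparagine synthetase, 41.9, and Phgdh (chromosome 3, 98313170 to 98339990, minus), which opens the serine pathway, 37.9. Ddit3 (chromosome 10, 127290774 to 127296288, plus), the gene of the cell death factor CHOP, had 32.9 RPKM. The remaining 5 genes were low. Ppp1r15a (chromosome 7, 45522916 to 45526268, minus), which recruits the phosphatase that restores eIF2, had 6.21 RPKM, Chac1 (chromosome 2, 119351229 to 119354381, plus), a glutathione-degrading enzyme, 4.11, and Sesn2 (chromosome 4, 132492032 to 132510501, minus), a sestrin that restrains mTORC1, 3.36. Slc7a3 (chromosome X, 101079210 to 101086020, minus), a transporter of cationic amino acids, had 1.42 RPKM. Trib3 (chromosome 2, 152337422 to 152344032, minus), a pseudokinase that feeds back on ATF4, had 0.222 RPKM. Positions are those of GENCODE M21 on GRCm38.

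Counts behind the low genes were small. Trib3 had between 3 and 19 reads in a library and Slc7a3 between 20 and 133, against 2220 to 3744 for Atf4. The coefficient of variation of the CPM level over all 34 libraries was lowest for Asns, at 8.14%, and highest for Trib3, at 47.3%, and the highest library exceeded the lowest by 1.37 and 6.78 times in these genes. Slc7a3 had the second-widest range, 5.21 times. A second Ddit3 gene of the annotation, placed inside the first on the same strand, had 0 reads in every library, and reads that fall in both could go uncounted. Ddit3 also overlaps Mars and Gm4189 on the other strand. The library kit keeps the strand, and the strand setting of the counting is not given in the sources used here, so Ddit3 levels carry that uncertainty.

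**Figure D1:**
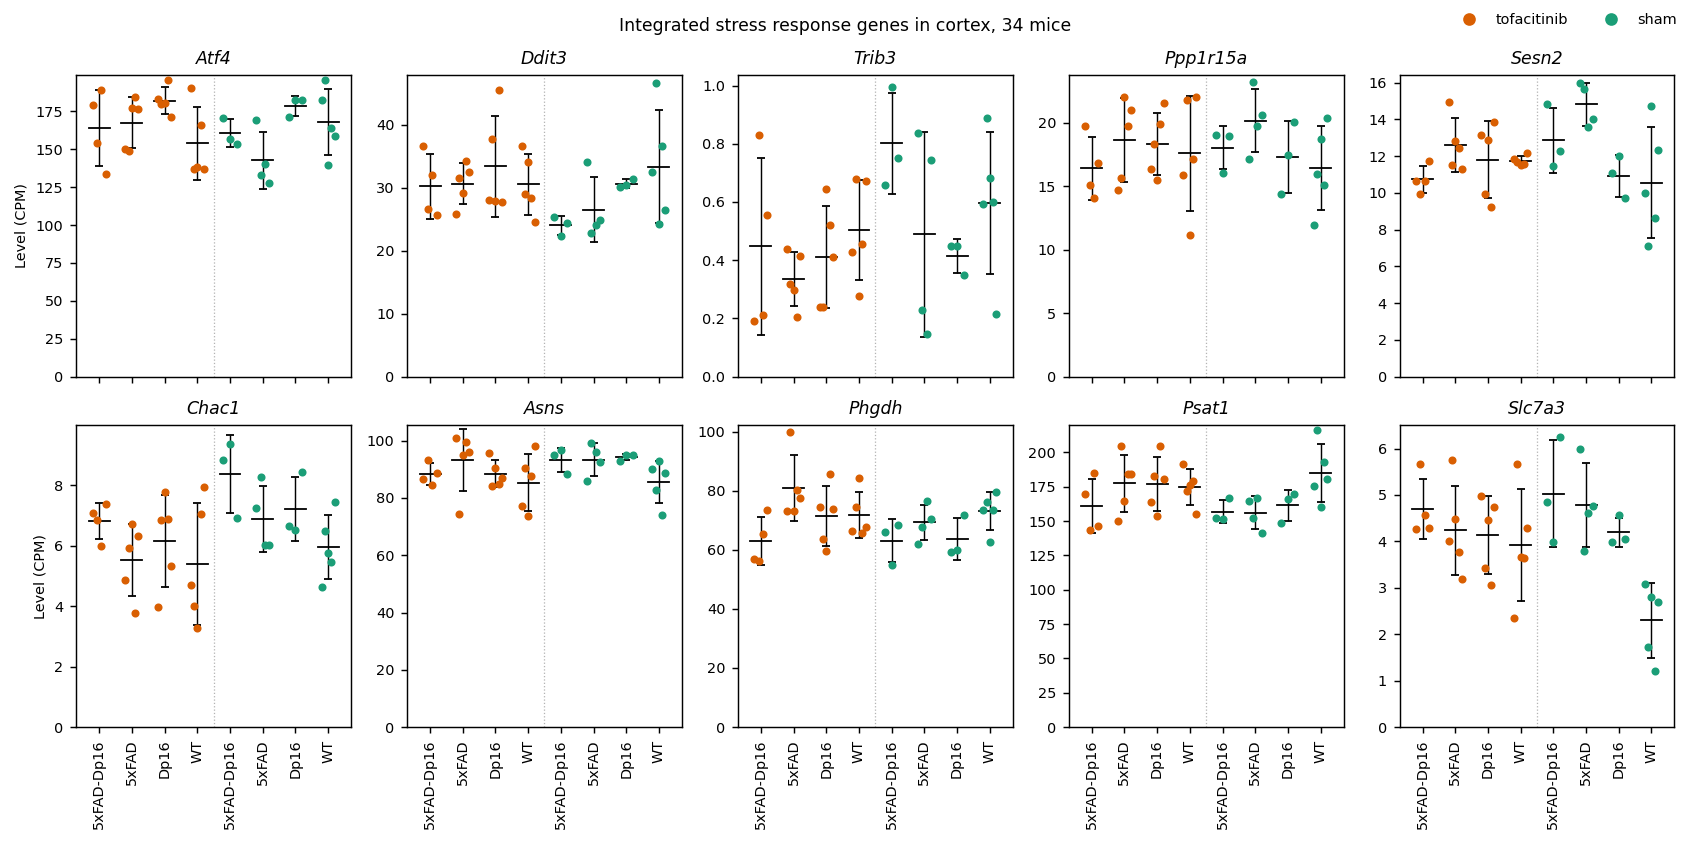
Level in CPM (TMM-scaled library totals) of each of the 10 genes in every library, with tofacitinib groups left of the dotted line and sham groups right of it. Bars are group means with SD. Slc7a3 was lowest in WT sham cortex, with 1.20 to 3.09 CPM, and Trib3 lay under 1 CPM in all libraries.

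Slc7a3 was the only member that edgeR called between genotypes, and several of the other fits given below did not keep that call. In sham cortex it had 4.85, 3.98 and 6.25 CPM in 5xFAD-Dp16 mice, against 3.09, 1.72, 2.79, 1.20 and 2.70 CPM in WT mice. All 3 double-lesion libraries lay above all 5 WT libraries. The level was 2.15-fold higher in 5xFAD-Dp16 than in WT, a log2 fold change of 1.10 (SE 0.26, 95% interval 0.58 to 1.62, adjusted p = 0.0424 in edgeR's quasi-likelihood test with Benjamini-Hochberg adjustment over 17632 genes). It was the only 1 of the 10 members called, where 0.363% of all genes tested were called in this comparison.

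Either lesion alone placed Slc7a3 on the same side without a call. 5xFAD sham mice had 5.99, 3.80, 4.60 and 4.77 CPM and Dp16 sham mice 3.98, 4.56 and 4.05 CPM, and neither group overlapped the WT sham libraries given above. The log2 fold change over WT was 1.07 in 5xFAD (SE 0.24, 95% interval 0.58 to 1.56, adjusted p = 0.0606) and 0.83 in Dp16 (SE 0.26, 95% interval 0.30 to 1.36, adjusted p = 0.348). These 3 comparisons share the same 5 WT sham libraries and are therefore not independent. Between the lesion groups no difference was detected: 5xFAD-Dp16 over 5xFAD was 0.04 (95% interval -0.50 to 0.57) and 5xFAD-Dp16 over Dp16 was 0.27 (95% interval -0.30 to 0.85).

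The call rested on few libraries. It was kept when WT sham 1, 3 or 5 was left out. It was lost without WT sham 2 (adjusted p = 0.167), WT sham 4 (0.132), 5xFAD-Dp16 sham 1 (0.105), 5xFAD-Dp16 sham 2 (0.0573) or 5xFAD-Dp16 sham 4 (0.463), while the log2 fold change stayed between 0.82 and 1.25. It was also lost when only the 2 groups compared were fitted (1.14, adjusted p = 0.116) and when WT sham 2 and 5xFAD tofacitinib 2 were left out together (1.00, adjusted p = 0.127). Slc7a3 had 76 to 133 reads in the 5xFAD-Dp16 sham libraries and 20 to 52 in the WT sham libraries. Beside this difference, the 6 striatal markers summed to 331 to 778 CPM in 5xFAD-Dp16 sham and 595 to 1493 CPM in WT sham, all 6 had lower estimates at an unadjusted p under 0.05 and none was called; no striatal marker was at 0. The part of this tissue difference in the Slc7a3 result was not tested. In 5xFAD sham the same markers summed to 792 to 1138 CPM, inside the WT sham range. The ranges of neuron marker sums also differed. The 5 excitatory markers summed to 6232 to 7092 CPM in 5xFAD-Dp16 sham and 6886 to 7117 CPM in 5xFAD sham. In WT sham they summed to 4636 to 6946 CPM. Their estimates over WT were above 0 for 5 of 5 in 5xFAD-Dp16 and 4 of 5 in 5xFAD, none at an unadjusted p under 0.05. Of the 6 inhibitory markers, 5 had an unadjusted p under 0.05 in 5xFAD over WT and 1 in 5xFAD-Dp16 over WT, with none called, and their sums were 904 to 930 CPM in 5xFAD-Dp16 and 918 to 970 CPM in 5xFAD, against 886 to 1041 CPM in WT. In 5xFAD-Dp16, 5xFAD and WT sham, in that order, astrocyte sums were 7203 to 7844, 6688 to 7640 and 5746 to 7446 CPM. Microglia sums were 428 to 532, 493 to 578 and 413 to 513 CPM. Endothelial sums were 221 to 262, 243 to 292 and 197 to 259 CPM. Oligodendrocyte sums were 6700 to 7592, 5849 to 7796 and 7259 to 8907 CPM. Dp16 sham sums lay inside the WT sham ranges for astrocyte (6101 to 7008 CPM), microglia (414 to 466) and endothelial markers (197 to 238). The same held for excitatory (5204 to 5903 CPM) and inhibitory neuron markers (960 to 1009). Dp16 sham sums of oligodendrocyte (5957 to 8298 CPM) and striatal markers (460 to 835) reached below the WT sham ranges. The part of all these markers in the Slc7a3 values was not tested.

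With tofacitinib the Slc7a3 levels of the genotypes overlapped. The libraries had 4.26, 5.66, 4.57 and 4.29 CPM in 5xFAD-Dp16, 4.00, 5.74, 4.47, 3.76 and 3.19 CPM in 5xFAD, and 4.98, 3.43, 4.45, 3.06 and 4.74 CPM in Dp16, against 2.35, 5.68, 3.67, 3.64 and 4.28 CPM in WT. All 3 lesion groups overlapped WT. The log2 fold changes over WT were 0.25 (95% interval -0.23 to 0.72), 0.11 (-0.34 to 0.56) and 0.05 (-0.41 to 0.51) in that order. Across all 8 groups the mean of 2.30 ± 0.80 CPM (SD, n = 5) in WT sham was the lowest, and the next, 3.92 ± 1.21 CPM in WT tofacitinib (SD, n = 5), was the only neighbour in the order that differed by more than the larger SD of the pair. The other means lay between 4.13 CPM in Dp16 tofacitinib and 5.03 CPM in 5xFAD-Dp16 sham.

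Tofacitinib over sham in WT mice gave Slc7a3 a log2 fold change of 0.76 (SE 0.23, 95% interval 0.29 to 1.23), which did not pass the adjustment (adjusted p = 0.592). In lesioned mice the estimates were -0.09 in 5xFAD-Dp16, -0.19 in 5xFAD and -0.02 in Dp16. The difference of the drug's effect between 5xFAD carriers and non-carriers, tested as an interaction, was -0.52 (SE 0.25, adjusted p = 0.341). The interaction with the duplication was -0.34 (SE 0.25, adjusted p = 1). Both include the WT sham libraries.

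In the other 9 members no genotype difference passed in edgeR in sham cortex. Of all 10 members, 4 had an unadjusted p under 0.05 in 5xFAD over WT, where 24.8% of all genes tested did, 4 in 5xFAD-Dp16 over WT, where 14.9% did, and 1 in Dp16 over WT, where 7.27% did. edgeR called 0 members in 5xFAD over WT, where 0.0170% of genes were called, and 0 in Dp16 over WT, where the share was 0.210%. DESeq2 and limma-voom with sample weights both called Sesn2 and Slc7a3 in 5xFAD over WT and no member in Dp16 over WT. Those tools called 9.00% and 14.2% of all genes in 5xFAD over WT, and 0.357% and 0.340% in Dp16 over WT. The groups did not overlap in 1 member in 5xFAD-Dp16 over WT, against 9.73% of all genes, in 1 member in 5xFAD over WT, against 10.8%, and in 2 members in Dp16 over WT, against 4.59%.

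**Figure D2:**
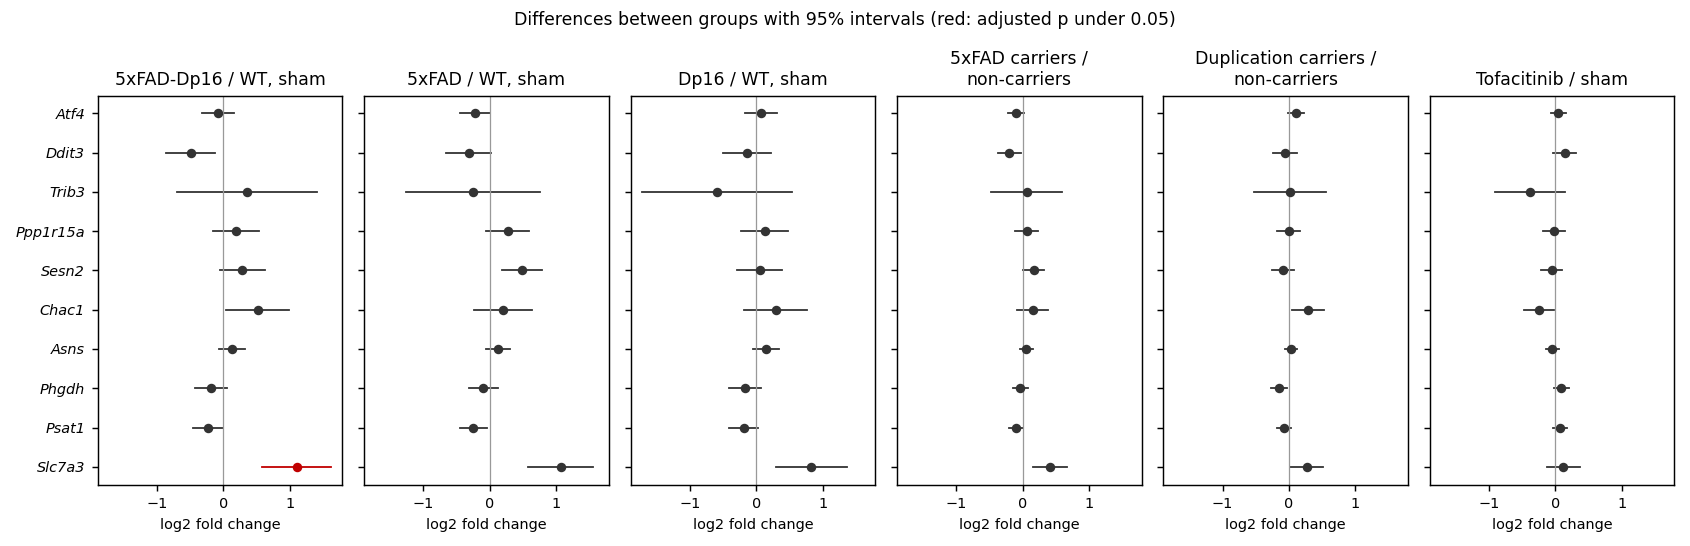
Log2 fold change of each gene with its 95% interval in 6 comparisons: the 3 lesion groups over WT in sham cortex, carriers over non-carriers of the 5xFAD transgenes and of the duplication, averaged over the other factors, and tofacitinib over sham, averaged over genotypes. Red marks the only call, Slc7a3 in 5xFAD-Dp16 over WT at 1.10.

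Atf4 itself was called by edgeR in no comparison. In sham cortex it had 171, 157 and 154 CPM in 5xFAD-Dp16, 169, 133, 140 and 127 CPM in 5xFAD and 171, 183 and 183 CPM in Dp16, against 182, 196, 140, 164 and 159 CPM in WT. Every lesion group overlapped WT. The log2 fold change over WT was -0.08 in 5xFAD-Dp16 (95% interval -0.33 to 0.16), -0.23 in 5xFAD (SE 0.11, adjusted p = 0.194) and 0.07 in Dp16 (95% interval -0.17 to 0.32). Averaged over both treatments and both states of the other lesion, Atf4 was at 0.10 in duplication carriers (95% interval -0.02 to 0.22) and at -0.10 in 5xFAD carriers (95% interval -0.22 to 0.02).

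Of the genes that act late in the response, Ddit3, Trib3 and Ppp1r15a, none was called. Ddit3 had 25.3, 22.3 and 24.4 CPM in 5xFAD-Dp16 sham cortex, against 32.5, 46.7, 24.2, 36.6 and 26.4 CPM in WT sham. The ranges overlapped, and the log2 fold change was -0.49 (SE 0.18, 95% interval -0.86 to -0.12, adjusted p = 0.248). In 5xFAD carriers over non-carriers Ddit3 was at -0.20 (SE 0.09, adjusted p = 0.190). Trib3 averaged 0.80 ± 0.17 CPM in 5xFAD-Dp16 sham (SD, n = 3) and 0.60 ± 0.24 CPM in WT sham (SD, n = 5), a log2 fold change of 0.36 whose 95% interval, -0.70 to 1.41, shows how little these counts can resolve. Ppp1r15a averaged 20.2 ± 2.51 CPM in 5xFAD sham (SD, n = 4), its highest group, and 16.4 ± 3.29 CPM in WT sham (SD, n = 5), its lowest, a log2 fold change of 0.27 (SE 0.16, adjusted p = 0.284).

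Sesn2 and Chac1 had their highest means in lesioned sham groups, as did Trib3, Ppp1r15a, Asns and Slc7a3. Sesn2 had 15.99, 15.7, 13.6 and 14.0 CPM in 5xFAD sham cortex, against 9.98, 7.12, 14.7, 8.65 and 12.3 CPM in WT sham. WT sham 3 reached into the 5xFAD range. The log2 fold change was 0.49 (SE 0.15, 95% interval 0.18 to 0.79) and missed the threshold at an adjusted p of 0.0640; without WT sham 3 it was 0.64 with an adjusted p of 0.0233. Chac1 had 8.85, 9.38 and 6.91 CPM in 5xFAD-Dp16 sham, against 4.63, 6.49, 5.77, 5.46 and 7.46 CPM in WT sham. The ranges overlapped through WT sham 5, and the log2 fold change was 0.51 (SE 0.23, adjusted p = 0.308). Over all strata Chac1 was at 0.29 in duplication carriers over non-carriers (SE 0.12, 95% interval 0.05 to 0.52, adjusted p = 0.240).

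Among the members, the amino acid enzymes Asns and Psat1 had the lowest coefficients of variation over all libraries, 8.14% and 10.9%. That of Phgdh was 13.4%, above the 12.3% of Atf4. Asns averaged 93.3 ± 4.28 CPM in 5xFAD-Dp16 (SD, n = 3), 93.4 ± 5.67 in 5xFAD (SD, n = 4) and 94.3 ± 1.12 in Dp16 (SD, n = 3), against 85.6 ± 7.49 CPM in WT (SD, n = 5), all sham. Its log2 fold changes over WT were 0.13, 0.12 and 0.14, and the largest upper bound of the 95% intervals was 0.34. Psat1 averaged 157 ± 8.37, 156 ± 11.9 and 162 ± 11.3 CPM in the same 3 groups, against 185 ± 21.0 CPM in WT, with log2 fold changes of -0.23, -0.25 and -0.19 and no call. Psat1 was lower and Asns higher in the means of all 3 lesion groups than in WT, where the same 5 WT sham libraries serve each comparison. Phgdh was at -0.19, -0.10 and -0.17 in these groups, and at -0.15 in duplication carriers over non-carriers over all strata (SE 0.06, 95% interval -0.27 to -0.04, adjusted p = 0.192). With tofacitinib Psat1 averaged 161, 178 and 177 CPM in 5xFAD-Dp16, 5xFAD and Dp16, against 175 CPM in WT. Asns averaged 88.4, 93.2 and 88.4 CPM there, against 85.4 CPM in WT.

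In mice given tofacitinib no member was called between genotypes. The share of all genes called was 0.306% in 5xFAD-Dp16 over WT, 0.0170% in 5xFAD over WT and 0.250% in Dp16 over WT. With an unadjusted p under 0.05 there was 1 member, Atf4 in Dp16 over WT, at a log2 fold change of 0.23 (SE 0.10, adjusted p = 0.549), which is near the share of all genes, 8.50%. That share was 6.39% in 5xFAD over WT and 6.41% in 5xFAD-Dp16 over WT. Atf4 averaged 182 ± 8.91 CPM in Dp16 tofacitinib mice, its highest group, and 154 ± 23.9 CPM in WT tofacitinib mice (SD, n = 5 each). No member was called between 5xFAD-Dp16 and either single lesion in sham cortex, where 0.102% of genes were called over 5xFAD and 0.00567% over Dp16. DESeq2 and limma-voom called no member in these 5 comparisons, and between 0.00567% and 1.11% of all genes.

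Tofacitinib over sham called no member in any genotype, and edgeR called 0% of all genes in each. At an unadjusted p under 0.05 stood 2 members in 5xFAD, where 14.8% of all genes did, 1 in WT, where 7.30% did, and none in 5xFAD-Dp16 or Dp16, where 1.92% and 2.05% did. In 5xFAD mice Atf4 had 150, 149, 177, 185 and 177 CPM with tofacitinib, against the sham values of 127 to 169 CPM above. The log2 fold change was 0.23 (SE 0.11, adjusted p = 0.335), and limma-voom with sample weights called it at 0.33 (adjusted p = 0.0391) together with 5.61% of all genes, while DESeq2 called no member. Phgdh in 5xFAD was at 0.24 (SE 0.11, adjusted p = 0.323) with 73.2, 99.9, 73.2, 80.1 and 77.6 CPM with tofacitinib, against 62.0, 67.8, 76.7 and 70.5 CPM in sham. The value of 99.9 belongs to the library that stood apart, and without that library the log2 fold change was 0.14. Averaged over genotypes, Chac1 was at -0.25 (SE 0.11, 95% interval -0.48 to -0.02, adjusted p = 0.935) and was the only member with an unadjusted p under 0.05, where 3.36% of all genes had one. For Atf4 that average was 0.04, with a 95% interval of -0.07 to 0.16.

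The averaged comparisons, which use all 34 libraries, called no member either. Duplication carriers over non-carriers called 2.14% of all genes and 5xFAD carriers over non-carriers 0.420%, and 3 members had an unadjusted p under 0.05 in each, where 13.7% and 20.3% of all genes did. Slc7a3 was among them in both, at 0.26 (SE 0.13, adjusted p = 0.342) for the duplication and at 0.41 (SE 0.12, 95% interval 0.16 to 0.66, adjusted p = 0.101) for 5xFAD. DESeq2 and limma-voom called no member in these averages, with 3.01% and 6.60% of all genes called for the duplication and 3.33% and 2.61% for 5xFAD. The interaction of the 2 lesions called no member and 0.00567% of genes, and its value for Slc7a3 was -0.36 (SE 0.25, adjusted p = 0.995). Interactions of tofacitinib with either lesion called 0% of genes in edgeR; for 5xFAD, 2 members had an unadjusted p under 0.05, where 14.5% of all genes did. limma-voom called both, Sesn2 at -0.41 (adjusted p = 0.0265) and Slc7a3 at -0.63 (adjusted p = 0.0394), together with 19.9% of all genes, a share like that of the members. The members' median log2 fold change was 0.16 in 5xFAD-Dp16 over WT, 0.01 in 5xFAD over WT and 0.06 in Dp16 over WT, all sham, beside 0.01, 0.01 and 0.00 over all genes tested. Sex was a term in every fit, and no member was called for it.

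Other genes of the pathway were read from 5 lists. They held 13 sensor and eIF2 genes, 12 further stress factors, 17 amino acid genes, 13 tRNA genes and 17 endoplasmic reticulum genes. The tRNA genes were charging enzymes and the exporter Xpot. The endoplasmic reticulum genes were chaperones and related genes, among them the stress regulators Atf6, Ern1 and Xbp1. Fgf21 and Gdf15, the secreted factors of the response, had at most 2 and 3 reads in any library and were not tested, which left 70 genes. Over all 18 comparisons 3 of these 70 were called. Atf5 and Slc6a9 were called in duplication carriers over non-carriers, where 2.14% of all genes tested were called. Psph was called in 5xFAD carriers over non-carriers, where 0.420% were. The calls are given as single genes and not as a result about the lists. Atf5, a factor related to ATF4, rose in duplication carriers over non-carriers by 0.20 (log2; SE 0.05, adjusted p = 0.0240). It averaged 53.3 ± 2.50 CPM in 5xFAD-Dp16 sham (SD, n = 3) and 45.0 ± 5.67 CPM in 5xFAD sham (SD, n = 4), and 50.3 ± 2.85 CPM in Dp16 sham (SD, n = 3) and 46.8 ± 2.72 CPM in WT sham (SD, n = 5). With tofacitinib it averaged 50.1 ± 4.49 CPM in 5xFAD-Dp16 (n = 4) and 43.0 ± 5.71 CPM in 5xFAD (n = 5), and 53.7 ± 3.60 CPM in Dp16 (n = 5) and 46.3 ± 3.96 CPM in WT (n = 5). The call was lost without Dp16 sham 3 (adjusted p = 0.0641), 5xFAD-Dp16 sham 1 (0.0542) or 5xFAD-Dp16 tofacitinib 3 (0.0648), and with no low-count filter (0.0642) or with the gene length trend described below removed (0.0703).

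Slc6a9, a glycine transporter, fell by 0.38 (log2; SE 0.10, adjusted p = 0.0256) in duplication carriers over non-carriers. It averaged 40.0 ± 3.59 CPM in 5xFAD-Dp16 sham (SD, n = 3) and 47.0 ± 5.86 CPM in 5xFAD sham (SD, n = 4), and 30.4 ± 2.22 CPM in Dp16 sham (SD, n = 3) and 36.8 ± 3.98 CPM in WT sham (SD, n = 5). With tofacitinib it averaged 33.9 ± 4.96 CPM in 5xFAD-Dp16 (n = 4) and 51.2 ± 19.5 CPM in 5xFAD (n = 5), where 1 library reached 84.5 CPM, and 34.4 ± 5.58 CPM in Dp16 (n = 5) and 44.4 ± 9.37 CPM in WT (n = 5). The call was lost without the same 3 libraries as for Atf5, at adjusted p values of 0.0636, 0.0592 and 0.0607. Cell type markers moved in the same comparison: of 6 inhibitory neuron markers 2 were called higher and 1 lower, of 7 oligodendrocyte, 7 microglia and 5 endothelial markers 1 each was called lower, and 5 of 6 striatal markers had lower estimates at an unadjusted p under 0.05. Oligodendrocyte sums ran from 5590 to 9866 CPM in carriers and 5849 to 14171 CPM in non-carriers, and striatal sums from 236 to 1124 CPM in carriers and 349 to 1493 CPM in non-carriers. Their part in the Slc6a9 and Atf5 results was not tested. Psph, the phosphatase that completes serine synthesis after Phgdh and Psat1, fell by 0.27 (log2; SE 0.06, adjusted p = 0.0378) in 5xFAD carriers over non-carriers. It averaged 18.6 ± 1.77 CPM in 5xFAD-Dp16 sham (SD, n = 3) and 24.4 ± 2.16 CPM in Dp16 sham (SD, n = 3), and 17.3 ± 2.06 CPM in 5xFAD sham (SD, n = 4) and 22.5 ± 2.07 CPM in WT sham (SD, n = 5). With tofacitinib the means lay closer, at 20.8 ± 2.35 CPM in 5xFAD-Dp16 (n = 4) and 25.3 ± 3.72 CPM in Dp16 (n = 5), and at 20.7 ± 1.99 CPM in 5xFAD (n = 5) and 21.2 ± 3.16 CPM in WT (n = 5). This call was kept in 19 of the 34 fits that left out 1 library, and was lost with 2 surrogate variables (-0.16, adjusted p = 0.395), with the length trend removed (-0.20, 0.0527) and without both WT sham 2 and 5xFAD tofacitinib 2 (-0.26, 0.0541). Beside it, 1 of 7 microglia markers was called higher and 3 of 6 inhibitory neuron markers had an unadjusted p under 0.05, with none called. Their part in the Psph result was not tested.

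The rest of the pathway lists gave no call. No sensor, tRNA or endoplasmic reticulum gene was called in the averages. Of the 13 tRNA genes 12 had estimates above 0 for 5xFAD carriers over non-carriers, with a median of 0.07. For the duplication 5 had, with a median of -0.02, and for tofacitinib 1, with a median of -0.05. Of the 17 endoplasmic reticulum genes 4 were above 0 for 5xFAD, 1 (Atf6) for the duplication and 2 for tofacitinib. The medians were -0.06, -0.06 and -0.04 in that order. All 17 were above 0 in the interaction of the 2 lesions, with a median of 0.08. Of all genes tested, 50.7% were above 0 for 5xFAD, 51.3% for the duplication, 53.0% for tofacitinib and 51.8% for that interaction. The largest estimates not called were those of Pycr1, a proline enzyme, at 0.41 (adjusted p = 0.469), and Slc1a5, a glutamine transporter, at 0.40 (adjusted p = 0.441), for the duplication, of Eif2ak2, the RNA-activated eIF2 kinase, at 0.32 (adjusted p = 0.167) for 5xFAD, and of the stress factor Atf3 at 0.48 and the cysteine enzyme Cth at 0.28 (both adjusted p = 0.935) for tofacitinib.

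Within groups the 10 genes did not vary as 1 unit. Correlations were taken over the 34 libraries on log2 CPM with group and sex effects removed, and are given as descriptions. Of 45 pairs, 3 had a Pearson r over 0.5 and 5 had one under -0.5, with a median of -0.07. Atf4, Ddit3 and Psat1 went together: r was 0.79 for Ddit3 with Psat1 (Spearman's rho 0.81), 0.68 for Atf4 with Ddit3 (rho 0.68) and 0.61 for Atf4 with Psat1 (rho 0.62). The amino acid enzymes Asns and Psat1 went against each other, at -0.63 (rho -0.69). Ddit3 was opposed to Sesn2 at -0.69 (rho -0.59), to Asns at -0.58 (rho -0.73) and to Slc7a3 at -0.50 (rho -0.45), and Sesn2 to Psat1 at -0.61 (rho -0.54). Atf4 with its target Asns had an r of -0.16. Without the 2 libraries farthest from the median of the first gene, 6 of these 8 pairs kept an r beyond 0.5 in size, and Ddit3 with Slc7a3 and Sesn2 with Psat1 were at -0.43 and -0.47.

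**Figure D3:**
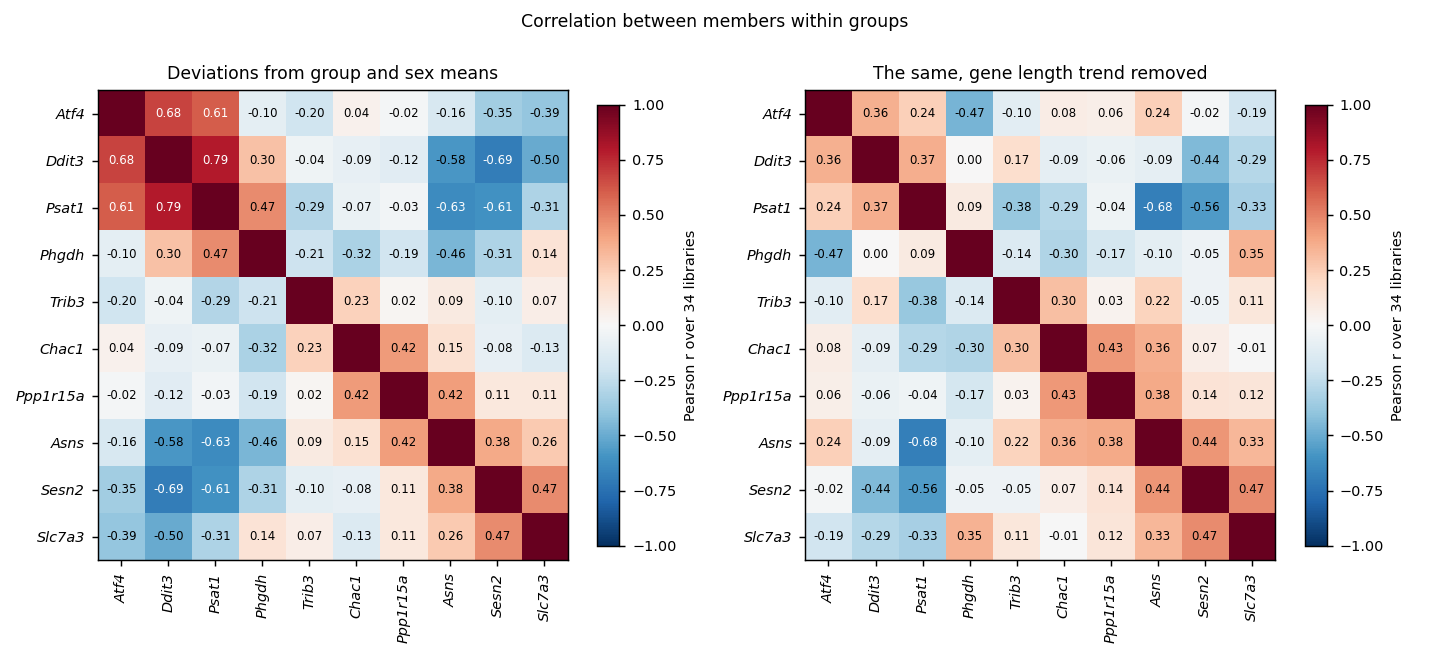
Pearson r between each pair of the 10 genes over 34 libraries, on log2 CPM with group and sex effects removed (left), and the same after a trend on gene length was removed from each library (right). Of 45 pairs, 3 exceed 0.5 on the left and none on the right, where Asns with Psat1 is at -0.68.

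A property of the whole library varied with these genes. In each library the log2 ratio of a gene to its mean was regressed on the logarithm of gene length. This straight line gives a slope in log2 units per 10-fold length. The first principal component of all genes within groups held 14.9% of the variance and correlated with this slope at an absolute r of 0.94. With the slope, r was -0.79 for Psat1, -0.75 for Ddit3, -0.62 for Atf4 and -0.42 for Phgdh, and 0.65 for Asns, 0.52 for Sesn2 and 0.39 for Slc7a3. Trib3, Ppp1r15a and Chac1 were at 0.22, 0.06 and 0.02. The median absolute r was 0.47 over the members and 0.40 over all genes tested. The length trend removed was not this straight line but a smooth curve (robust loess) fitted to the same ratios in each library. After its removal, no pair of members exceeded 0.5, Ddit3 with Psat1 was at 0.37 and Atf4 with Ddit3 at 0.36. Asns with Psat1 was then at -0.68 and Sesn2 with Psat1 at -0.56. The removal raised the within-group SD of Asns from 0.12 to 0.17 (log2) and lowered that of Psat1 from 0.15 to 0.14. For Asns it thus added spread, which limits what the -0.68 can show.

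**Figure D4:**
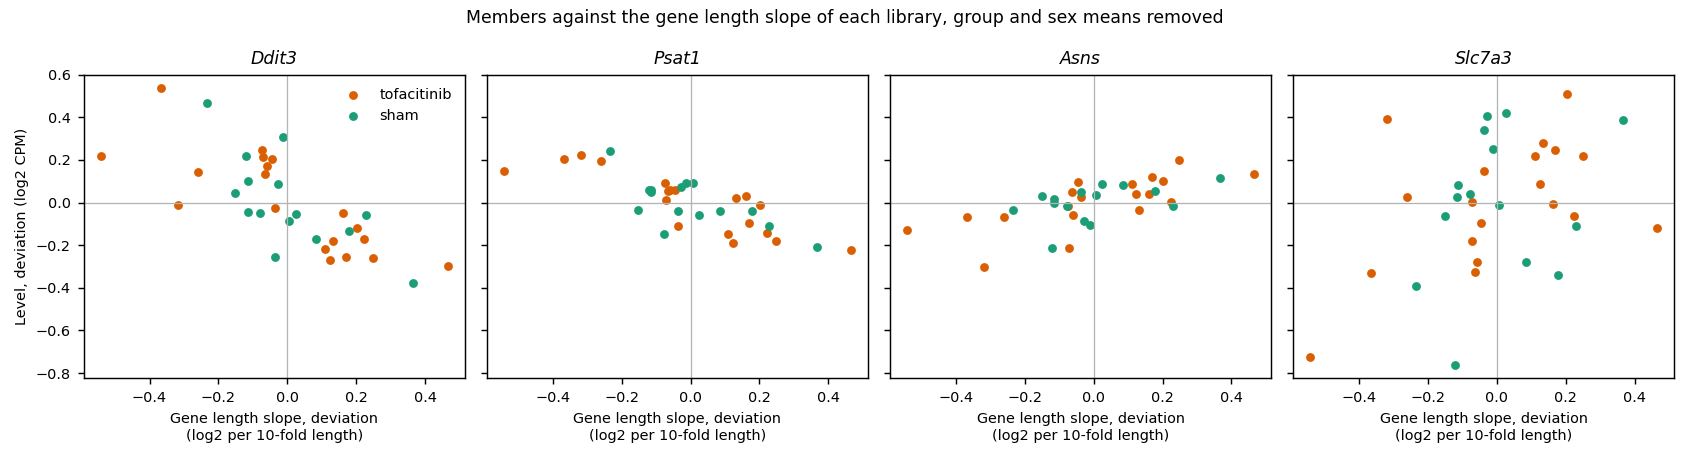
Deviation of Ddit3, Psat1, Asns and Slc7a3 from group and sex means (log2 CPM) against the deviation of each library's gene length slope (log2 per 10-fold length), 34 libraries. Ddit3 (r -0.75) and Psat1 (r -0.79) run down with the slope, Asns (r 0.65) runs up, and Slc7a3 (r 0.39) scatters.

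The slope had different ranges in the groups, and its part in the members' differences was examined only by the fits given here. It lay between 0.03 and 0.36 in 5xFAD-Dp16 sham, 0.21 and 0.38 in 5xFAD sham and -0.25 and 0.11 in Dp16 sham, against -0.32 to 0.26 in WT sham. The genes with negative r, Ddit3, Psat1, Atf4 and Phgdh, had negative estimates in 5xFAD over WT. Of those with r above 0, Sesn2, Asns, Slc7a3, Ppp1r15a and Chac1 had positive estimates and Trib3 had one of -0.25. After removal of the length trend Slc7a3 in 5xFAD-Dp16 over WT stayed called, and in 5xFAD over WT it was called at 1.07 (adjusted p = 0.0445). With 2 surrogate variables in the model its estimate in 5xFAD-Dp16 over WT was 0.80 (adjusted p = 0.199).

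For each member the 3 genes of most like pattern within groups were taken over the same 34 libraries, among the 14475 tested genes that averaged 1 CPM or more. Slc7a3 was closest to Tril, Dmpk and Lyn (r 0.78, 0.74 and 0.73). Atf4 was closest to Cyb5r4, B3gat3 and Vcpkmt (r 0.87, 0.85 and 0.85), Ddit3 to Tcea1, Hpf1 and Ppp1cb (0.88, 0.87 and 0.87), Asns to Cadps2, Diras2 and Dock3 (0.89, 0.89 and 0.88) and Psat1 to Snx5, Rnf13 and Chpt1 (0.90, 0.89 and 0.89). The others had lower maxima: Ppp1r15a with Gm48295, Cpne9 and Klf6 (0.77, 0.72 and 0.70), Sesn2 with Rgmb, Asb7 and Eml3 (0.75, 0.74 and 0.73), Phgdh with Hadh, Ntsr2 and Opalin (0.74, 0.73 and 0.73), Chac1 with Epsti1, Mitf and Msc (0.66, 0.64 and 0.62) and Trib3 with Acvr2b, Zcchc3 and Slc9a5 (0.66, 0.59 and 0.59). No member was among the 3 genes closest to another member. With 3 places among 14475 genes this says little about the members. Trib3, which lay under 1 CPM in all libraries, was not a candidate. After the length trend was removed, r was 0.32 for Ddit3 with Tcea1, 0.71 for Atf4 with Cyb5r4 and 0.72 for Slc7a3 with Tril.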

How the data were processed

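Per the labels' protocols, RNA was extracted from brain cortex with TRIzol, enriched for poly-A RNA, made into strand-specific libraries and read as paired ends. The deposited counts are whole reads per gene and mouse, and per the submitters' processing notes the authors used HISAT2 2.1.0 with HTSeq 0.6.1 and SAMtools 1.5, besides FastQC 0.11.5 and bcl2fastq, on build GRCm38; the roles of these tools are not stated there. The deposited RPKM values were scaled by the authors by gene length and column total, which recomputation from the counts checked on 713471 values (largest relative deviation 9.1e-15). Counts were used for every test and RPKM for comparing levels between genes. Of the 6 5xFAD mice on tofacitinib that the series' design text lists, 5 were analysed here, and of its 4 5xFAD-Dp16 sham mice, 3.

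All 34 libraries were fitted at once by the quasi-likelihood method of edgeR 4.0.16 (R 4.3.3), after its filterByExpr step over the 8 groups and TMM scaling, with terms for group and sex. This gave 18 comparisons. P values are two-sided and adjusted by Benjamini-Hochberg over 17632 genes, and a gene was called under 0.05. The SE is the log2 fold change divided by the square root of F. Averaged comparisons weight the groups equally. Each mouse counts as 1 replicate. Positions come from GENCODE M21, which held 55144 of the 55385 genes.

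The members and the gene lists were chosen with earlier results of these data known. Every member is named, as is every listed pathway gene called in any comparison and, otherwise, the 2 largest estimates in each averaged comparison. Alternatives were DESeq2 1.42.0 (its test, and its size factors in edgeR), limma-voom (limma 3.58.1) with sample weights, TMM without genes of the duplicated segment, no low-count filter, a mean of 1 CPM, replicate number as a block, a fit without sex, 2 surrogate variables (sva 3.50.0), only the groups compared, a gene length trend removed, both WT sham 2 and 5xFAD tofacitinib 2 left out, and each library left out in turn.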

Additional observations from a re-analysis of the deposited data

Results flagged for a closer look

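Within the groups of 4 or 5 mice, 60 sets of levels were screened for a library set apart from the others. The measure was its gap to the nearest neighbour as a share of the group's range. The screen picked out 2 values, with shares of 0.77 and 0.74. Chance picks about 1 in 20. Both belonged to 5xFAD tofacitinib 2, from a female: Asns at 74.5 CPM, against 94.9 to 101 CPM in the other 4 libraries, and Phgdh at 99.9 CPM, against 73.2 to 80.1 CPM. Asns, the asparagine enzyme, was thus low and Phgdh, the first enzyme of serine synthesis, high in the same library. In that library the oligodendrocyte marker sum was 14171 CPM, the highest of all 34, and the excitatory neuron marker sum was 2484 CPM, the lowest of all. The part of this in the Asns and Phgdh values was not tested. The screen did not pick out every wide gap. Ddit3 in 5xFAD sham had a highest value of 34.1 CPM, against a median of 24.5 and a lowest of 22.8. Slc7a3 in 5xFAD-Dp16 tofacitinib had a highest value of 5.66 CPM, against a median of 4.43 and a lowest of 4.26. Both are groups of 4 mice.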

How the results depend on the processing

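Of 515 alternative counts of called members 494 were unchanged, and of 810 alternative estimates for single genes 755 kept their direction and their side of the threshold. In 5xFAD-Dp16 over WT sham, where 1 member was called, the count was 2 without a low-count filter (Ddit3 added) and 0 with the replicate block (Slc7a3 at 1.17, adjusted p = 0.0654), 2 surrogate variables, both WT sham 2 and 5xFAD tofacitinib 2 left out, or only the groups compared; leaving out 1 library gave 0 to 1. In 5xFAD over WT sham, where 0 were called, it was 2 with DESeq2 and with limma-voom, 1 without a low-count filter, without a sex term, with the length trend removed or with only the groups compared, and 0 to 2 when 1 library was left out. In other comparisons, each with 0 in edgeR, it was 1 for tofacitinib in 5xFAD (limma-voom), 1 for the duplication (2 surrogate variables, Phgdh), 1 for 5xFAD carriers (no low-count filter, Slc7a3) and 2 for tofacitinib by 5xFAD (limma-voom). With 2 surrogate variables the sign turned for Atf4 in 5xFAD over WT sham, to 0.035, and for Ddit3 in 5xFAD carriers, to 0.0066. The cause was not tested.

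Counts over all genes also moved. The 3 called in 5xFAD over WT sham became 1 with the replicate block and 2512 with limma-voom, and 1 to 1981 when a library was left out. The 37 in Dp16 over WT sham ranged from 6 (only the groups compared) to 158 (no low-count filter), the 64 in 5xFAD-Dp16 over WT sham from 43 to 873 (24 to 89 when 1 library was left out), the 378 for the duplication from 206 (block) to 1746 (surrogate variables; 263 to 541 with 1 library left out) and the 74 for 5xFAD carriers from 17 (block) to 1358 (no low-count filter), or 15 to 293 with 1 library left out. In tofacitinib mice the 44, 3 and 54 calls of Dp16, 5xFAD and 5xFAD-Dp16 over WT ranged from 13 to 147, 0 to 105 and 5 to 373, and with 1 library left out from 31 to 91, 1 to 9 and 25 to 78. Between 5xFAD-Dp16 and the single lesions, 18 and 1 ranged from 13 to 145 and 1 to 52. For tofacitinib the highest counts were 990 in 5xFAD and 3500 for its interaction with 5xFAD, both with limma-voom, and at most 93 in the other comparisons; with 1 library left out, tofacitinib in 5xFAD gave 0 to 352. The replicate block also ended the calls of Slc6a9 (-0.37, adjusted p = 0.0641) and Psph (-0.31, adjusted p = 0.0655). Deviations of same-numbered libraries correlated between -0.47 and 0.08. With 2 to 5 pairs a comparison, these values are too few to decide whether the replicate numbers pair mice. In each group the females had the lower numbers. Depth limits Trib3, with at most 19 reads a library, and Slc7a3, with at most 133.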
